A study of Mus musculus with 6 samples.

Results

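Sorl1 encodes SorLA, a transmembrane sorting receptor of the VPS10P family, and its mRNA was far lower in small intestinal organoids lacking Smarcad1 than in wild-type organoids. Sorl1 is the single row with that symbol in a table of 1420 genes that the authors had selected as changed on these same libraries, and it was picked for description because its values were among those furthest below wild type. Its difference between the groups is for that reason given as a description, with no test. The 3 wild-type (WT) and 3 Smarcad1 knockout (KO) samples are organoids, miniature epithelia cultured in Matrigel from crypts of C57BL/6 mice, and poly(A)+ RNA was sequenced from about 600 organoids per condition, collected 5 days into the last round of culture. The labels call the knockout Vil-Cre mediated, which would place recombination in the intestinal epithelium, whereas the growth protocol and the study's methods derive the crypts from mice recombined by ZP3-cre, a driver of the oocyte, and from control littermates. The deletion removes exons that code for the ATP-binding part of the remodeller and shifts the reading frame behind them. The ages of the mice, and how many mice stand behind each group, are not given in the labels, so that errors measure the spread between these samples.

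SorLA carries proteins between the Golgi, endosomes and the cell surface. Its luminal part joins a VPS10P domain to complement-type repeats that bind ligands, and its short tail binds the retromer complex and clathrin adaptors, which return it from endosomes or take it up from the membrane. It is best known in neurons, where it holds the amyloid precursor protein back from the secretases that cut it. Lipoprotein lipase and apolipoprotein E are among its other ligands.

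Sorl1 (ENSMUSG00000049313) lies on the minus strand of chromosome 9 from 41964720 to 42124297 (GRCm38). Its span of 159.6 kb holds 4 annotated transcripts, whose merged exons cover 11321 bases, or 7.09% of the span. The longest transcript has 10715 bases in 48 exons. An antisense gene, Gm16214, lies inside it from 42022615 to 42034113 on the plus strand, and its exons share 185 bases with those of Sorl1. The libraries were directional, but whether the counting used the strand is not given in the sources used here, so reads over these bases could come from either gene. RefSeq (GRCm38.p6) gives Sorl1 a second start within the gene. The deposited value sums over merged transcripts and cannot be divided between the starts, so the 250 bases before each are shown on the minus strand, 5′ to 3′, with the GC box GGGCGG or its complement CCGCCC and the E box CACGTG, which reads the same on both strands, in capitals. The first window is chr9:42124298-42124547 and the second chr9:42077214-42077463.
First start: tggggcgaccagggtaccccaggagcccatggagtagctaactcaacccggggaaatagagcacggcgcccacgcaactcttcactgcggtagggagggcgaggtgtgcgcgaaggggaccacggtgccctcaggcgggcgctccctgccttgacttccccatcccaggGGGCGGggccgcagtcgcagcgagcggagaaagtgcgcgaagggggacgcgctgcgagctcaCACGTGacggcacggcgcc
Second start: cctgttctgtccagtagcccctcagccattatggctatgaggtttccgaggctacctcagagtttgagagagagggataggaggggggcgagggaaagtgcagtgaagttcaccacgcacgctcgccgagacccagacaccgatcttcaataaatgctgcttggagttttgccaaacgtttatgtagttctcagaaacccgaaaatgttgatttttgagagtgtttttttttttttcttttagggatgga
The first window held 1 GC box, 1 E box and 26 CG dinucleotides, and no TATAAA on either strand. Among 32851 RefSeq windows of this length, 32.7% held a GC box and 6.02% the E box, the median number of CG was 6, and 9.59% had at least as many CG as the first Sorl1 start. The second window held 9 CG, a number reached by 40.3% of the windows, and neither motif. The window letters differ in this way between the starts, which says nothing on the use of either.

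Smarcad1 itself was measured first, as the check of the labels. It stood at 105.5, 94.7 and 96.3 RPM (reads per 1e+06 reads of the library) in WT replicates 1 to 3 and at 21.7, 21.3 and 24.03 RPM in the KO replicates, which is 22.6% of its former level, and the groups did not overlap. Depth, inferred from the step of 1 read, ran from 1.24e+07 to 1.57e+07 reads. As a background for the marker lists, 673 (47.4%) of all 1420 listed genes were lower in KO and 747 were higher. Of 21938 protein-coding genes in the genome 6.07% were listed, a background that includes genes the organoids do not express. Of the 15 enterocyte markers 8 were in the table and 7 of them were lower in KO, with a summed level of 21599 to 24511 RPM in WT and 15645 to 17079 RPM in KO. Of the 15 Paneth cell markers 11 were in the table and all 11 were higher, with sums of 9150 to 10679 RPM in WT and 19481 to 28292 RPM in KO. The listed goblet cell markers (5 of 10, of which 4 were higher and Ccl9 was lower) summed to 199% of WT in KO, the stem cell markers (3 of 13) to 140% and Gcg, the 1 listed of 12 enteroendocrine markers, stood at 171%. Dclk1, the 1 listed of 10 tuft cell markers, was lower, at 15.5 to 26.9 RPM in WT and 10.9 to 12.2 RPM in KO. None of the 14 markers of fibroblasts, endothelium and leukocytes was in the table, which holds selected genes only.

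Sorl1 was measured at 206.7 RPM in WT replicate 1, at 249.01 RPM in WT replicate 2 and at 187.6 RPM in WT replicate 3. In KO it was measured at 25.6, 25.3 and 32.7 RPM in replicates 1 to 3. The groups were far apart, with the lowest WT library 5.73 times the highest KO library. The WT libraries had a mean of 214.5 ± 31.4 RPM (SD, n = 3). The KO libraries had a mean of 27.9 ± 4.19 RPM (SD, n = 3), which is 13.0% of that level and a 7.69-fold difference. Over the 9 pairs of a WT and a KO library the ratio ran from 5.73 to 9.83. The log2 difference of KO from WT was -2.94 with a standard error of 0.16, on the scale log2(RPM + 0.1). As these are bulk samples, fewer cells with Sorl1 mRNA and less Sorl1 mRNA per cell cannot be told apart. The summed enterocyte markers and the tuft marker Dclk1 moved in the same direction, to 70.1% and 51.9% of their WT level against 13.0% for Sorl1, and the summed Paneth, goblet and stem cell markers and Gcg moved in the opposite direction. The part of these shifts in the result was not tested.

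**Figure D1:**
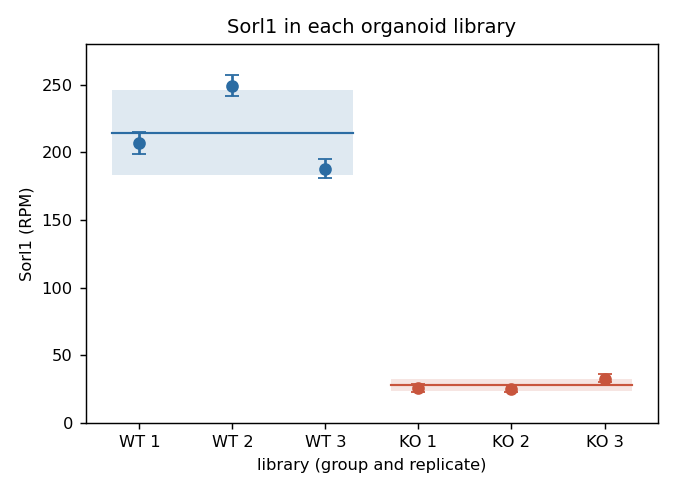
Sorl1 in RPM (vertical axis) in each of the 6 libraries. Points are libraries with exact 95% Poisson intervals of their reads, lines are group means and bands are ± 1 SD. The WT libraries sit between 187.6 and 249.01 RPM and the KO libraries between 25.3 and 32.7 RPM.

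Counting error was small beside this difference. The values correspond to 2660, 3899 and 2875 reads in the WT libraries and to 318, 369 and 467 reads in the KO libraries, which gives exact 95% Poisson intervals of 199 to 215, 241 to 257 and 181 to 195 RPM in WT. The WT libraries therefore differed from each other by more than counting error, and WT replicate 2 was the highest. In KO the intervals were 22.9 to 28.6, 22.8 to 28.05 and 29.8 to 35.8 RPM, and only replicate 3 stood clear of the others. These intervals cover counting error alone. The coefficient of variation of Sorl1 was 14.6% in WT and 15.04% in KO. Among the 224 listed genes with a WT mean within 1.5-fold of that of Sorl1, the median WT coefficient was 5.71% and 12 genes had a higher one. In KO the figure for Sorl1 was ordinary, with 100 of 222 genes of similar KO level above it and a median of 14.005%.

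The difference moved Sorl1 down the order of the listed genes. By RPM it ranked 331, 273 and 352 of 1420 in the WT libraries and 993, 1015 and 942 in the KO libraries. These ranks are not corrected for length, so they show the shift of Sorl1 and not its level against other genes. On the log2 scale its difference was the 16th lowest in the table (rank 16). Of the 15 genes with a lower value, 14 had WT means of only 1.01 to 6.37 RPM, and the other was Grm4, a glutamate receptor gene, with 79.3 RPM in WT and 3.70 RPM in KO. Next to Sorl1 in this order stood Rims4, a presynaptic gene at -3.03 and a WT mean of 4.63 RPM, and Cox6a2, a respiratory chain subunit gene at -2.84. Of the genes with a WT mean at or above that of Sorl1, 0 had a lower log2 difference. Among the 224 genes of similar WT level the median was -0.39 and the lowest was -1.92. In RPM the loss of Sorl1 was 186.6, rank 82 of 1420. Of all listed genes 673 were lower and 747 higher in KO, with a median log2 difference of 0.38.

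**Figure D2:**
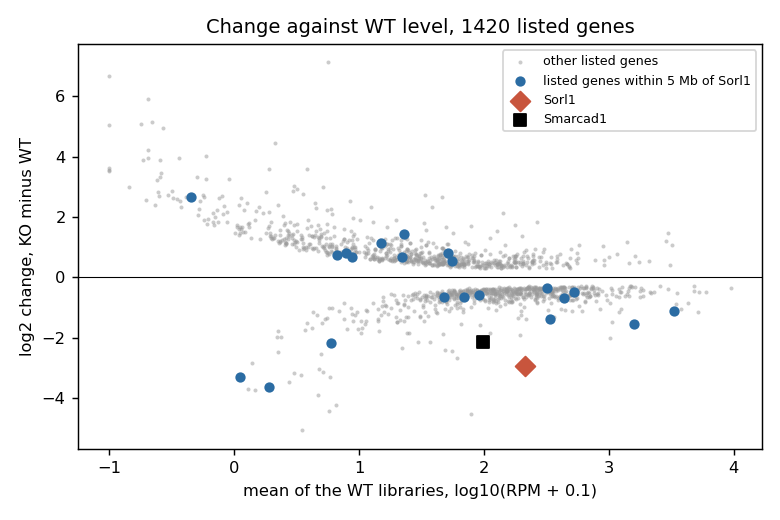
Log2 difference of KO from WT (vertical axis) against the mean of the WT libraries on a log10(RPM + 0.1) axis for the 1420 listed genes. Sorl1 (diamond) lies at -2.94, below the 224 listed genes of similar WT level, whose lowest value is -1.92, Smarcad1 (square) lies at -2.14, circles are the listed genes within 5 Mb of Sorl1 and dots the other genes, and 14 of the 15 genes below Sorl1 have WT means of 1.01 to 6.37 RPM.

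Sorl1 has one of the longer messages in the table, with rank 57 by merged exon length among the 1397 genes matched to the annotation. The 86 listed genes with at least 10 kb of exons had a median log2 difference of -0.47, and 54 of them were lower in KO, against 673 of 1420 in the table. Sorl1 had the lowest value of the 86, followed by the deleted gene Smarcad1 at -2.14 and by Fras1, a basement membrane protein gene, at -1.47. When a trend with transcript length was removed from each library, the difference of Sorl1 was -2.67 in place of -2.94.

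The other genes of the sorting pathway were taken from lists of receptors, retromer, adaptors, amyloid precursor processing, lipoprotein receptors and ligands, 96 genes beside Sorl1. Of these 10 were in the table, 6 lower and 4 higher in KO, with a median log2 difference of -0.38. Each of the 10 passed limma's adjusted 0.05, as did 99.9% of the table (47.4% lower and 52.5% higher), which had been selected on this contrast, so this count says nothing particular to them. Without KO replicate 2 the count was 6 of 10, and without WT replicate 1 or WT replicate 3 it was 7, while 6 of the 10 were lower in each of these fits. The whole table lost calls in the same fits, with 1138 of 1420 genes passing without KO replicate 2, 1159 without WT replicate 1 and 1219 without WT replicate 3.

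Among the VPS10P receptors, 1 of the 4 relatives of Sorl1 was listed. Sorcs2, a receptor known for binding neurotrophin precursors, moved the other way. It was measured at 53.2, 44.1 and 39.4 RPM in WT replicates 1 to 3 and at 55.3, 80.5 and 84.2 RPM in KO. The KO libraries were thus all above the WT libraries, narrowly so for KO replicate 1, with a log2 difference of 0.67, standard error 0.20 and limma adjusted p = 0.0164. That call was lost without WT replicate 3 or without KO replicate 2 (limma adjusted p from 0.0528 to 0.0553). Levels of different genes can be set side by side only per length. Per kb of exon, Sorl1 stood at 16.6 to 21.996 RPM in WT and Sorcs2 at 4.48 to 6.05 RPM, whereas in KO Sorl1 stood at 2.24 to 2.89 RPM and Sorcs2 at 6.28 to 9.57 RPM. The order of the pair was therefore reversed in KO, with no overlap in either group.

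The amyloid precursor and secretase list had 3 of 14 genes in the table, all higher in KO. Aplp1, a relative of the amyloid precursor protein, was measured at 42.6, 35.3 and 36.5 RPM in WT and at 203.4, 195.6 and 172.2 RPM in KO, a 4.99-fold rise (limma adjusted p = 7.74e-05). Per kb of exon it went from 12.6 ± 1.29 to 63.1 ± 5.38 RPM (SD, n = 3), so that it was below Sorl1 in WT and above it in KO. Bace2, a protease that can cleave the amyloid precursor protein, rose from 12.4 ± 1.60 to 31.3 ± 6.75 RPM (SD, n = 3; limma adjusted p = 0.00234). Aph1b, a gamma-secretase subunit, rose from 2.20 ± 0.93 to 5.74 ± 1.06 RPM (SD, n = 3; limma adjusted p = 0.00795). In each of the 3 genes the KO libraries were all above the WT libraries, as in 51.3% of the table, or nearly all of its higher genes.

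The lipoprotein receptor list had 3 of 17 genes in the table, all lower in KO, as was 47.4% of the table. So few genes say nothing on the family as a whole. Vldlr, a lipoprotein and reelin receptor, was measured at 112.6, 104.0 and 107.3 RPM in WT and at 37.4, 52.3 and 80.3 RPM in KO (52.5% of WT, limma adjusted p = 0.0118). Lrp8, another reelin receptor, was measured at 48.4, 45.03 and 36.8 RPM in WT and at 15.5, 25.5 and 37.3 RPM in KO (limma adjusted p = 0.0376). The groups overlapped for Lrp8 and not for Vldlr, and KO replicate 3 was the highest KO library for both. The call of Lrp8 was lost without WT replicate 1, 2 or 3 or KO replicate 1 or 2 (limma adjusted p up to 0.0943).

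Of the 20 adaptor genes, Ap2a1 and Ap2a2, the alpha subunits of the endocytic adaptor AP-2, were listed and lower in KO, as was 47.4% of the table. Ap2a1 was at 73.2% and Ap2a2 at 80.7% of its WT level (limma adjusted p = 0.0116 and 0.0234), and the second call was lost without WT replicate 1, WT replicate 3 or KO replicate 2 (limma adjusted p up to 0.0822). None of the 18 genes of the retromer, its sorting nexins and the WASH complex was in the table (0 of 18), and their levels were not analysed here.

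**Figure D3:**
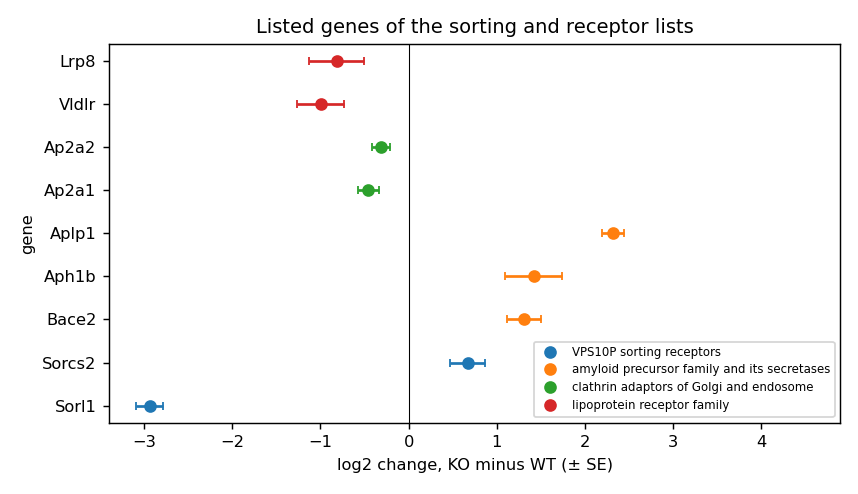
Log2 difference of KO from WT with its standard error (horizontal axis) for Sorl1 and 8 other listed genes of the pathway lists, coloured by list. Sorl1 lies at -2.94, while Sorcs2 lies at 0.67 and the 3 genes of the amyloid precursor list lie between 1.31 and 2.32.

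The genes around Sorl1 were described as its genomic context. Within 5 Mb of its start the table held 21 other genes, 12 lower and 9 higher in KO, with a median log2 difference of -0.48. All 21 passed limma's adjusted 0.05 and all 21 had groups that did not overlap, against 99.9% and 98.5% of the whole table, and 47.4% of the table was lower. In 12 genes each KO library was below each WT library, as in 47.2% of the table, and in 9 each was above, as in 51.3%. Of the 199 other annotated protein-coding genes in the window 18, or 9.05%, were listed, against 6.07% of 21938 in the genome, a background that includes genes the organoids do not express. At the edges, Tmem218 and Apoa4 were the outermost genes inside 5 Mb, and Fam118b and Cadm1 the next outside.

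Sorl1 lay within a run of 5 consecutive listed genes that were all lower in KO, AC140409.2, Hspa8, Ubash3b, Sorl1 and Sc5d, over 1.52 Mb. The run was drawn outward from Sorl1, itself chosen for its fall, up to the next listed gene higher in KO. Its members are thus lower by construction, and 47.4% of the table was lower. The stretch holds 8 annotated protein-coding genes, of which 4 were listed, Sorl1 included, against 6.07% in the genome. Because the run ends on listed genes, that share is raised by how it was drawn. No other protein-coding gene lies between Ubash3b and Sorl1, 803 kb apart, or between Sorl1 and Sc5d, 127 kb apart. Sc5d, a desaturase of cholesterol synthesis, was measured at 342.6, 338.9 and 334.2 RPM in WT and at 100.4, 132.6 and 171.0 RPM in KO (log2 difference -1.36, limma adjusted p = 0.00215). Hspa8, the constitutive HSC70 chaperone that also uncoats clathrin vesicles, was measured at 1544, 1605 and 1619 RPM in WT and at 524.0, 554.3 and 540.6 RPM in KO (log2 difference -1.56, limma adjusted p = 9.47e-05). Both were thus lower in every KO library, and both kept a larger share of their WT level than Sorl1, 39.8% and 34.0% against 13.0%. Ubash3b, a tyrosine phosphatase gene, had few reads, with 34, 23 and 19 in WT and 1, 1 and 0 in KO, a ratio of WT to KO of 35.8 (exact 95% interval 9.57 to 301, counting error only). AC140409.2, a transcript opposite Clmp, was at 5.44, 8.17 and 3.79 RPM in WT and at 1.77, 0.82 and 1.05 RPM in KO.

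Past Sc5d, where the run ends by its rule, the next listed genes were higher in KO. Tbcel, a tubulin folding factor related gene whose listed start is 448 kb from that of Sorl1, rose from 54.8 ± 4.82 to 80.5 ± 2.90 RPM (SD, n = 3; limma adjusted p = 0.00469). Trim29 rose from 0.35 ± 0.32 to 2.45 ± 1.32 RPM (SD, n = 3; limma adjusted p = 0.00747). It had few reads in WT, at 0.078, 0.70 and 0.26 RPM, and WT replicate 1 lay below its floor of 3 reads, 0.233 RPM. Among the listed genes of the window Apoa4, an apolipoprotein of enterocytes, had the highest RPM, a value not divided by length. It was measured at 3667, 2537 and 3724 RPM in WT and at 1577, 1526 and 1414 RPM in KO. Hyou1, an endoplasmic reticulum chaperone, and Arcn1, a subunit of the COPI vesicle coat, fell by 0.69 and 0.48 on the log2 scale. Jaml, a junction adhesion molecule, C2cd2l, Rnf26 and Usp2 were also lower, by 0.37 to 0.65. Rnf26 and Usp2 overlap on opposite strands, which leaves their reads uncertain, and the calls of Arcn1 (without WT replicate 1), Jaml and Usp2 (both without WT replicate 3) were lost at limma adjusted p = 0.0548, 0.0540 and 0.0518. AC138284.3 was at 5, 19 and 22 reads in WT and at 0 in each KO library. Tmem218, Vwa5a, Nlrx1, Ift46, Tmem25 and Scn2b were higher in KO by 0.67 to 1.15 on the log2 scale, and AC151971.2 was 2.69-fold higher. On the same strand AC151971.2 overlaps BC049987, AC138284.3 overlaps Ccdc15 and Gm47652, and AC140409.2 overlaps Gm48293, which leaves their reads uncertain too.

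**Figure D4:**
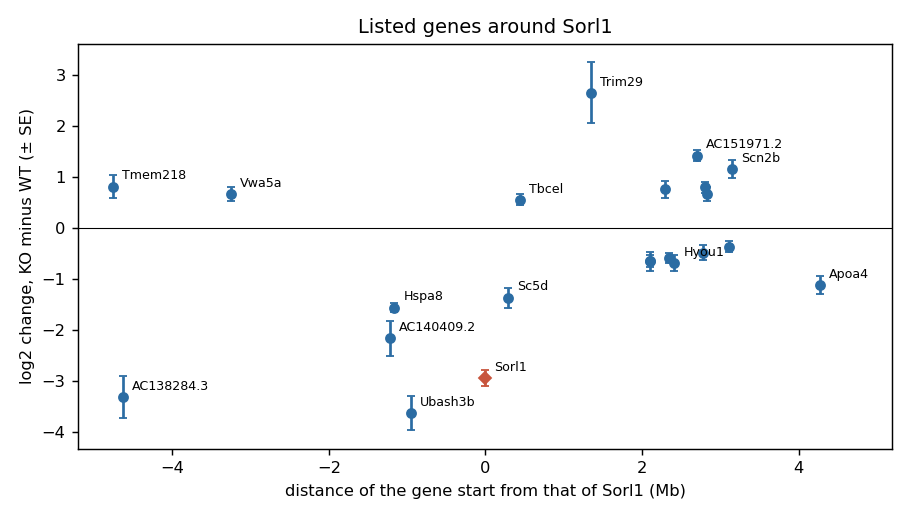
Log2 difference of KO from WT with its standard error (vertical axis) for Sorl1 (diamond) and the 21 listed genes whose listed start is within 5 Mb, by distance in Mb. The 5 genes from AC140409.2 to Sc5d lie between -3.63 and -1.36, and Tbcel and Trim29 to their right lie above 0.

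The genes whose pattern was most like that of Sorl1 were found from the root mean square difference of profiles over the 6 libraries, each profile being log2(RPM + 0.1) minus the mean of the WT libraries. As a likeness in these libraries, dominated by the difference between the groups, it was computed for 1419 genes and had a median of 2.35. The nearest was Tdg, a thymine DNA glycosylase of base excision repair, with a difference of 0.26. Tdg was measured at 61.6, 60.03 and 59.8 RPM in WT and at 7.16, 8.44 and 13.3 RPM in KO, and as for Sorl1 its highest KO value was in replicate 3. Prss33, a serine protease gene, followed at 0.44, Smoc1, a matricellular protein gene, at 0.45, Emid1, an extracellular matrix gene, at 0.47 and Adamts10, a matrix metalloprotease gene, at 0.48. Among these only Tdg and Emid1 had WT means above 6 RPM, with 60.5 and 55.4 RPM. The next gene, Prss41, was at 0.49, so that the order behind Tdg rests on small steps.

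**Figure D5:**
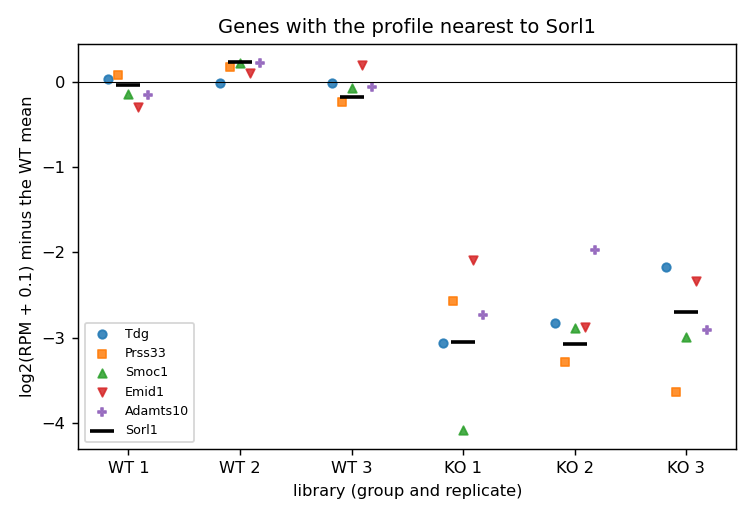
Log2(RPM + 0.1) minus the WT mean (vertical axis) in each library for Sorl1 (black bars) and the 5 listed genes with the nearest profiles (symbols, shifted sideways for legibility). Tdg lies closest to Sorl1, and the 5 genes spread in KO replicate 1 from -4.08 to -2.09.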

How the data were processed

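mRNA was measured in 6 small intestinal organoid libraries, sequenced as 50 bp paired-end reads from directional poly(A)+ libraries. The authors trimmed reads with Trim Galore 0.4.2, mapped them to GRCm38 with HISAT2 2.0.3, kept unique reads and counted them over exons of merged transcripts in SeqMonk. The deposited table holds RPM values by the authors for the 1420 genes that passed their DESeq2 test on raw counts, and its FDR column (their p-values) was not used. The RPM step of 1 read gave the depth, and 100% of the deposited values came out as whole reads within 0.01. A floor of 3 reads is 0.192 to 0.242 RPM. As fewer than 100 values a library lay between 1 and 20 reads, the criterion used here for a count test on recovered reads was not met and none was run.

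Samples were grouped by title. Genes were fitted with limma 3.58.1 in R 4.3.3 on log2(RPM + 0.1), KO against WT, two-sided, Benjamini-Hochberg over all 1420 genes, threshold 0.05. This scale understates changes of low genes. The fit was tested on simulated data. Exon and transcript lengths came from GENCODE M21, with 1397 genes matched by symbol and position, and upstream sequence from RefSeq. The named genes are Sorl1, Smarcad1, the listed genes within 5 Mb, the listed pathway members, the genes at the edges of that window, the 5 nearest profiles and the genes next in the order of change. Values of some listed pathway members are not reported here. Grm4, Fras1, Prss41, Capn11, Sec14l4, Fam81a, Paqr9 and the markers Gcg, Dclk1 and Ccl9 were named after their values were seen. Members and lists were chosen with earlier results of these data known. Alternatives were other scalings, pseudocounts, filters and variance models, a replicate block, removal of the length trend, other windows and leaving out each library.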

Additional observations from a re-analysis of the deposited data

How the results depend on the processing

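The log2 difference of Sorl1 stayed negative under each alternative run. It was -3.03 with libraries centred on the median listed gene, which shifted the median of all genes by -0.09, -2.90 with a pseudocount of 1, and between -3.06 and -2.83 over the fits without 1 of the 6 libraries. Removal of the length trend moved it by more than the replicate spread, to -2.67, and the cause was not tested. With the replicate number as a block it was -2.94 with a standard error of 0.18, 1351 genes of the table passed limma's adjusted 0.05 and 8 of the 10 pathway genes did, Ap2a2 and Lrp8 being lost. The correlation of deviations between libraries of the same number was -0.08, 0.09 and 0.06, so the block rests on shared numbers only.

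The number of genes that passed ran from 1138 to 1404 across the fits that left out a library. The 12 lower of 21 neighbours stayed 12 in those fits, by centring and with the block. Some neighbours dropped out of 2 other fits. There 9 of 14 were lower with the filter at the 25th percentile, and 10 of 18 with the length trend removed. Within 2 Mb 4 of 6 were lower (median -1.46), the 4 being the other genes of the run around Sorl1. Within 10 Mb 17 of 29 were lower (median -0.48). Of the 5 nearest profiles, 5 were found again after centring and 3 with a pseudocount of 1, where Capn11 and Sec14l4, both at a few RPM, took the place of Prss33 and Adamts10. Among 37 genes of the sets described, Sorl1 left out, 18 of 429 values lost the threshold and 0 changed direction. With 3 libraries a group and a table selected on this contrast, such constancy describes the list.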

Other observations

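Chromosome 9 held 5 of the 16 genes with the lowest log2 difference in the table, an observation made after the values were seen and not tested. The cut at 16 is the rank of Sorl1 itself, which puts Sorl1 among the 5 by construction. The 5 were AC138284.3, Ubash3b, Sorl1, Fam81a and Paqr9, and 6.41% of the listed genes lie on this chromosome. Fam81a, at 70088511, was measured at 4.51, 2.62 and 2.94 RPM in WT and at 0 in each KO library. Paqr9, a membrane receptor family gene at 95559657, was measured at 7.38, 2.30 and 4.18 RPM in WT and at 0.16, 0 and 0.77 RPM in KO. Sorl1 was the only one of the 5 with a WT mean above 5 RPM. Over the chromosome as a whole 43 of 91 listed genes were lower in KO, with a median log2 difference of 0.36, near the 0.38 of the table.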
